A study of Mus musculus with 2 samples.

Results

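Trem2, Spp1, Gpnmb, Mmp12, Mmp19, Atp6v0d2, Cd9 and Cd63 are 8 of the 26981 genes counted in either library, and they are often read together as genes of lipid-associated macrophages. They were chosen by their UMI counts in these same 2 libraries (which cells held them, together with which other members, and NW against ABX), in cells with at least 500 gene UMIs, at least 200 genes and at most 25% mitochondrial UMIs, so the levels and the NW to ABX ratios that follow are descriptions and carry no test. All 8 were listed in both libraries.

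Lipid-associated macrophages are found in fat that is being remodelled, where they gather around dying adipocytes and take up and digest lipid. Their genes cover the whole route of a swallowed lipid droplet. TREM2 is the surface receptor that senses lipids, and osteopontin (Spp1) is a secreted ligand of CD44 and of integrins. GPNMB is a glycoprotein of late endosomes and lysosomes, ATP6V0D2 is a subunit of the proton pump that acidifies lysosomes in macrophages and osteoclasts, and CD63 and CD9 are tetraspanins of lysosomes and of the cell surface. MMP12 (macrophage elastase) and MMP19 are secreted proteases of the extracellular matrix.

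CD45+ cells were taken with magnetic beads from visceral adipose tissue (VAT; epididymal, as titled) of wild-type C57BL/6 SPF mice at 15 weeks of age. The mice had received normal water (NW) or antibiotics (ABX), which in the study's methods are ampicillin, vancomycin, streptomycin and colistin in the drinking water. For each condition 1 library was made on the BD Rhapsody system, where unique molecular identifiers (UMIs) count mRNA molecules per cell barcode, and the number of mice behind a library is not given in the sources used here. Library and condition therefore cannot be told apart, no test between NW and ABX was possible, and all intervals are 95% intervals of counting error only.

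The filters kept 12474 NW and 12724 ABX cells, whose medians were 5092 and 3845.5 UMIs, so ABX was the shallower library. Of these, 196 barcodes were cells in both libraries, and leaving them out gave a Mmp12 log2 ratio of -4.99 as with them. Clusters were built without the 8 genes and without 25 further genes of lipid-handling macrophages, and were named from markers. Macrophage-like cells (5805 NW and 5063 ABX cells in 4 clusters) passed for 9 or 10 of 10 macrophage markers. The largest of the 4 was a Lyve1, Fcna and Cd209f cluster in NW (2754 cells) and a Vcam1 and Cd163 cluster in ABX (2181 cells). A further cluster, led by Fn1, Ear2 and Lyz1, held 797 NW cells (6.39%) and 641 ABX cells (5.04%). It passed for 4 of 10 monocyte markers (Fn1, S100a4, Ms4a4c and Ear2), and its summed level of the 10 macrophage markers was 6572 CPM in NW and 5048 CPM in ABX, against 21477 and 18859 CPM in macrophage-like cells. CPM are UMIs per 1e6 gene UMIs of the cells named. Because its markers give no more than this, it is called here the Fn1 Ear2 Lyz1 cluster. It was singled out after the data were seen, as the cluster with most Gpnmb UMIs. Its share and level of Gpnmb, and of genes found in the same cells, therefore follow in part from that choice. The sort for CD45+ cells had left other cells, 322 NW and 487 ABX endothelial-like and 5 and 85 fibroblast-like cells.

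The genes lie on 6 chromosomes of GRCm38 and all are protein coding in GENCODE M21. Mmp12 is at chr9:7344381-7369499 (plus strand) and overlaps Mmp1b on the other strand. Gpnmb is at chr6:49036546-49070929 (plus) and Cd9 at chr6:125460266-125494791 (minus). Trem2 is at chr17:48346401-48354147 (plus), Spp1 at chr5:104435118-104441050 (plus) and Atp6v0d2 at chr4:19876841-19922605 (minus). Mmp19 at chr10:128790910-128800824 and Cd63 at chr10:128900989-128912822, both on the plus strand, lie 100164 bases apart. Mmp19 overlaps Tmem198b on the other strand, which had 1118 UMIs in NW and 777 in ABX, and whether the counting used strand is not given in the sources used here, so its level is uncertain to that extent.

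Promoter windows from RefSeq (GRCm38.p6, 250 bases before to 50 after a start) were found for 6 of the 8 genes, Mmp19 and Atp6v0d2 being named only. The AP-1 motif TGANTCA, searched on both strands, was in the windows of 3 of these 6 genes, Trem2, Gpnmb and Mmp12, and in 7.81% of all 32851 windows. The sequences around it are shown because these are the receptor and both genes whose UMIs lay in the fewest cells below. They read 5′ to 3′ on the plus strand, with the match in capitals. For Trem2 the 250 bases before the start (chr17:48346151-48346400) hold TGAATCA 9 bases before the start. For Mmp12 the 250 bases before its second start (chr9:7347124-7347373) lie in an intron of its longer transcript and hold TGAGTCA 44 bases before the start. For Gpnmb the 30 bases around the match (chr6:49036514-49036543) are given, and TGACTCA begins 8 bases after the start.
Trem2: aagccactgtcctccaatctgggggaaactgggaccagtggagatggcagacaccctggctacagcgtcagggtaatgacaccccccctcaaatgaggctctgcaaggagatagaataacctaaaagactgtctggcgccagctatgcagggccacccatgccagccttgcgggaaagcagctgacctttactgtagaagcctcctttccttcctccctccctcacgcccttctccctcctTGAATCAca
Mmp12: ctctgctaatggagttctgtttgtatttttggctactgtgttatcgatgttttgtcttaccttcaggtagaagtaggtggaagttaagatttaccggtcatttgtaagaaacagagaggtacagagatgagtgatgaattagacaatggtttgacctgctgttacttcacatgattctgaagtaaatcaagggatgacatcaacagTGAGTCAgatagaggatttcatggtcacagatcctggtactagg
Gpnmb: gccaggggcaagTGACTCAtgagcacgagt
The E-box CACGTG was in the windows of 0 of the 6 genes and in 7.15% of all windows. The variant CATGTG was in 2 (Cd9 and Mmp12) and in 14.2% of all, and GAGGAA, a core of ETS sites, was in 4 (Cd63, Mmp12, Spp1 and Trem2) and in 28.3% of all. Mmp12 and Spp1 also have a window at a second start, and a gene was counted with a match in any of its windows. The shares of all windows are of single windows, so the counts and the shares are not on the same base. The window of the first Mmp12 start holds no AP-1 match. All these matches are letters in a window, and binding was not measured.

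Over all cells, Mmp12 differed most between the libraries, with 4250 UMIs in NW and 108 in ABX. That is 56.5 and 1.78 CPM, a log2 ratio of ABX over NW of -4.99 (-5.28 to -4.72) or a 31.8-fold higher level in NW, and Mmp12 ranked 6th from the lowest of 12311 genes with at least 200 UMIs in both libraries together. The other members were lower in ABX by less. Spp1 had 398 and 78 UMIs (5.29 and 1.28 CPM), a log2 ratio of -2.04 (-2.41 to -1.69). Gpnmb had 3771 and 1344 UMIs (50.1 and 22.1 CPM), a log2 ratio of -1.18 (-1.27 to -1.09). Mmp19, the other protease, stood at 27.5 and 13.1 CPM, a log2 ratio of -1.06 (-1.18 to -0.95), and the proton pump subunit Atp6v0d2 at 42.4 and 22.2 CPM, a log2 ratio of -0.93 (-1.03 to -0.84).

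The receptor and the tetraspanins were closer to level. Trem2 stood at 101 CPM in NW and 75 in ABX, a log2 ratio of -0.43 (-0.48 to -0.38). Cd63 stood at 473 and 380 CPM, a log2 ratio of -0.31 (-0.34 to -0.29), and Cd9 at 77.8 and 72.6 CPM, a log2 ratio of -0.10 (-0.15 to -0.04). In all, 5 of the 8 genes were at least 1.5-fold lower in ABX and 0 were at least 1.5-fold higher, with a median log2 ratio of -1.0. Among all 12311 genes 1.93% were that much lower and 8.22% that much higher, with a median of 0.05. The choice of these genes rested on this same contrast, so nothing is read from the count. The share of macrophage-like cells was 46.5% in NW and 39.8% in ABX, so a level over all cells holds both how many cells there were and how much mRNA each held.

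**Figure D1:**
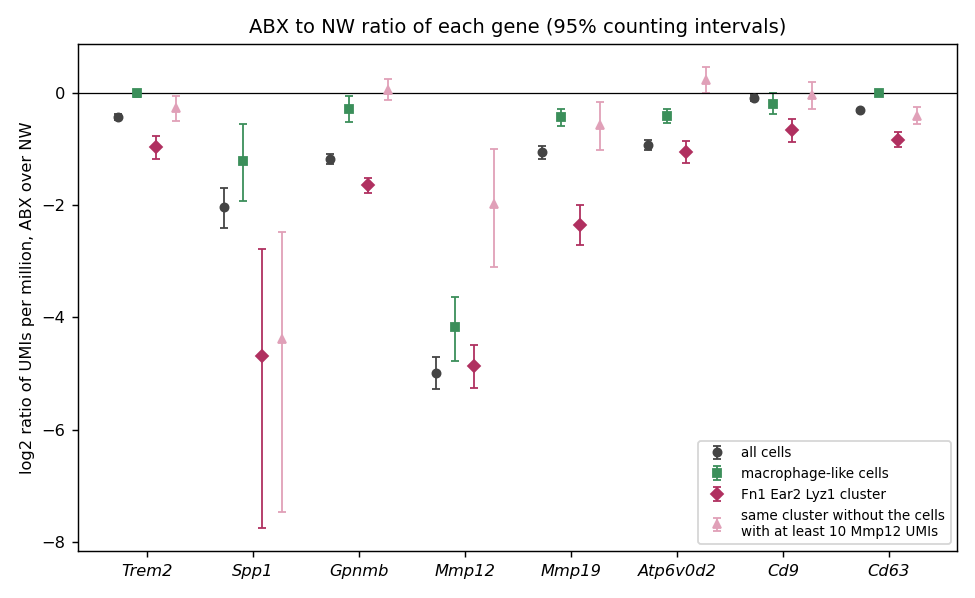
Log2 ratio of CPM, ABX over NW, for each of the 8 genes over all cells (circles), in macrophage-like cells (squares), in the Fn1 Ear2 Lyz1 cluster (diamonds) and in that cluster without cells holding at least 10 Mmp12 UMIs (triangles). Bars are 95% counting intervals and the line at 0 is no difference. Mmp12 lies at -4.99, -4.18 and -4.86 in the first 3 sets, while Trem2 and Cd63 lie at -0.01 in macrophage-like cells and Gpnmb at 0.06 in the last set.

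The UMIs of the 8 genes lay in different cells. Cd63 and Trem2 were genes of the macrophage-like cells as a whole, which held 80.2% of the Cd63 UMIs in NW and 78.0% in ABX, and 75.9% and 79.6% of those of Trem2. Mmp12 and Gpnmb were genes of few cells outside them. The Fn1 Ear2 Lyz1 cluster held 74.0% of the Mmp12 UMIs in NW and 56.5% in ABX, and 73.1% and 36.9% of those of Gpnmb. Atp6v0d2 (33.8% and 21.7%) and Mmp19 (31.4% and 9.02%) were divided between this cluster and macrophage-like cells, which held 49.5% and 55.6% of the Atp6v0d2 UMIs and 50.9% and 61.7% of those of Mmp19.

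With both libraries summed, the Fn1 Ear2 Lyz1 cluster had the highest level of 4 of the 8 genes among the 25 clusters of at least 50 cells, and it led for all 4 in NW but for Mmp12 and Atp6v0d2 only in ABX. The cluster had been singled out by its Gpnmb UMIs, so its place for Gpnmb largely restates that choice. Gpnmb stood there at 561 CPM (542 to 581), next to 475 CPM (429 to 525) in fibroblast-like cells, with intervals that did not overlap, and the next at 55.2 CPM in a CD8 T cell-like cluster. That order was the NW one. In ABX, where 85 of the 90 fibroblast-like cells lay, Gpnmb stood at 491 CPM in fibroblast-like cells and at 237 CPM in the Fn1 Ear2 Lyz1 cluster. Mmp12 stood at 553 CPM (534 to 573) and in the next cluster, of Vcam1 and Cd163 macrophage-like cells, at 18.8 CPM (17.0 to 20.7). Atp6v0d2 stood at 236 CPM (224 to 249) against 49.3 CPM (41.8 to 57.8) in an NK cell-like cluster and 47.3 CPM (44.5 to 50.2) in the Vcam1 and Cd163 macrophage-like cells, which did not differ beyond their counting intervals. Mmp19 stood at 124 CPM (116 to 134) against 96.8 CPM (76.6 to 121) in fibroblast-like cells, whose interval overlapped that of the Fn1 Ear2 Lyz1 cluster, and in ABX it was higher in fibroblast-like cells, at 94.8 against 34.4 CPM.

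With both libraries summed the other 4 genes were highest elsewhere. Trem2 was highest in the macrophage-like cluster led by Ccl12, Cx3cr1 and Il1b, at 228 CPM (217 to 239), and stood at 196 CPM (184 to 207) in the Fn1 Ear2 Lyz1 cluster. In NW the Fn1 Ear2 Lyz1 cluster was above it, at 238 against 220 CPM, and in ABX below it, at 121 against 235 CPM. Cd63 was highest in mature DC-like cells, at 1034 CPM (991 to 1079). Cd9 was highest in neutrophil-like cells, at 522 CPM (435 to 621), and cDC1-like cells held 39.9% of its UMIs in NW and 35.9% in ABX. Spp1 was sparse everywhere. Its level was 22.3 CPM (17.5 to 28) in a proliferating cluster led by Top2a and Mki67, 19.4 CPM (14.4 to 25.6) in an NK cell-like cluster and 16 CPM (13 to 19.7) in the Fn1 Ear2 Lyz1 cluster, with overlapping intervals. In the NK cell-like cluster 45 Spp1 UMIs lay in 4 NW cells, of which 1 held 40.

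**Figure D2:**
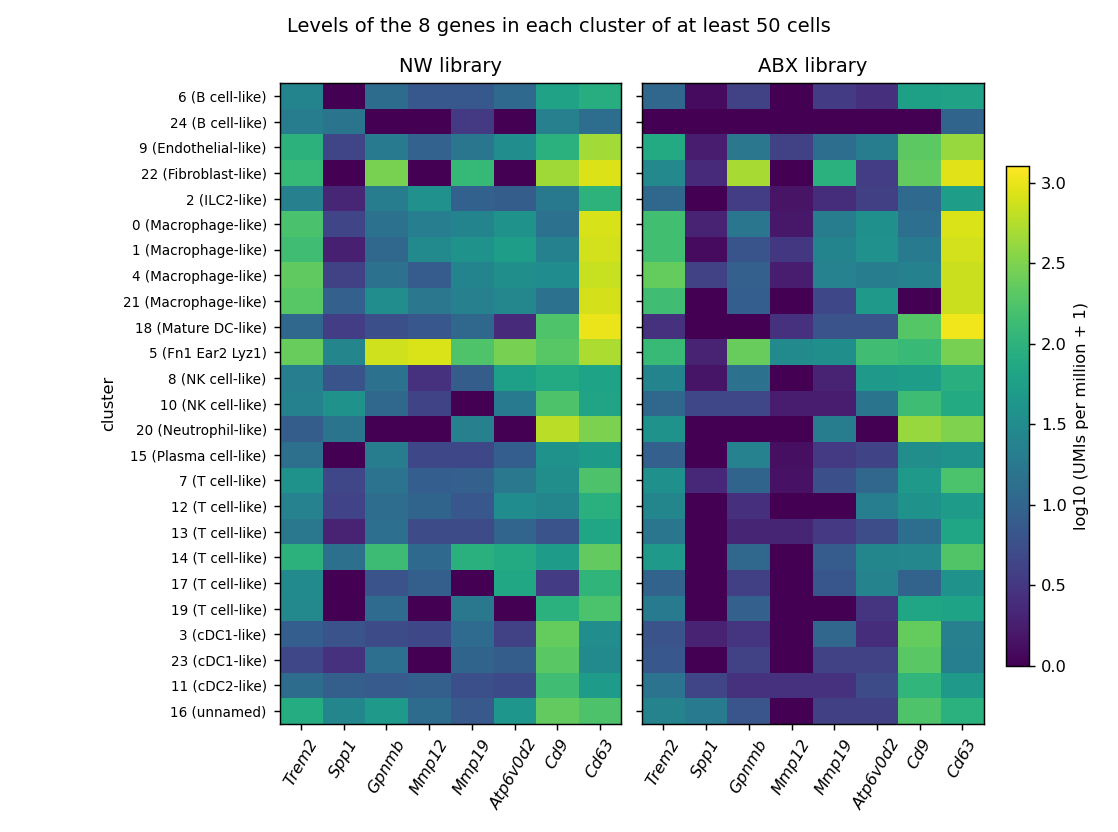
Level of each gene (columns) in each cluster of at least 50 cells (lines of the map, with the name of the cluster) in the NW library (left) and the ABX library (right), coloured by log10 of CPM plus 1. Cd63 and Trem2 are bright across all 4 macrophage-like clusters in both libraries, whereas Mmp12 is bright in the Fn1 Ear2 Lyz1 cluster, at 850 CPM in NW against 29.2 CPM in ABX.

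How few cells held a gene's UMIs also separated the members. In NW, 50% of the Mmp12 UMIs lay in 9 cells, 50% of those of Gpnmb in 11 and 50% of those of Spp1 in 15. The same share took 103 cells for Atp6v0d2, 137 for Mmp19, 518 for Cd9, 668 for Trem2 and 1380 for Cd63. ABX gave a like order with 2 cells for Mmp12, 19 for Gpnmb and 21 for Spp1, and 1140 for Cd63. The most UMIs in a cell were 346 of Mmp12 and 510 of Gpnmb in NW, and 51 and 131 in ABX.

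**Figure D3:**
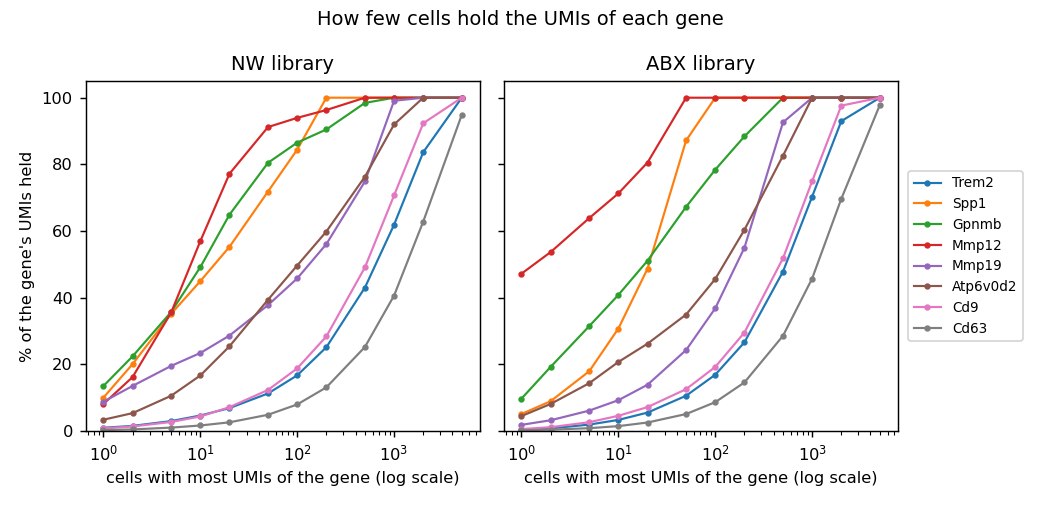
Share of each gene's UMIs (percent) held by the cells with most UMIs of it, against the number of those cells on a log scale, in NW (left) and ABX (right), 1 line a gene. At 10 cells the Mmp12 line is at 57.0% in NW and 71.3% in ABX and the Gpnmb line at 49.2% and 40.8%, while the Cd63 line is at 1.68% and 1.49%.

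Within macrophage-like cells the receptor and the lysosomal tetraspanin did not differ between the libraries beyond counting error. Trem2 stood at 160 CPM in NW and 158 in ABX, a log2 ratio of -0.01 (-0.07 to 0.05), and Cd63 at 792 and 788 CPM, a log2 ratio of -0.01 (-0.04 to 0.02). By cluster, Trem2 stood at 161 CPM in NW and 142 in ABX in the Lyve1, Fcna and Cd209f cluster (2951 and 1406 UMIs). It stood at 141 and 144 in the Vcam1 and Cd163 cluster and at 220 and 235 in the Ccl12, Cx3cr1 and Il1b cluster (654 and 836 cells). An interferon-response cluster of 56 and 58 cells had 194 and 142. Intervals of the ratios within these clusters are not given. The level over all 4 clusters also depends on how many cells each of them had. Mmp19 and Atp6v0d2 were lower in ABX. Mmp19 stood at 29.2 and 21.5 CPM, a log2 ratio of -0.44 (-0.60 to -0.29), Atp6v0d2 at 43.9 and 32.8 CPM, a log2 ratio of -0.42 (-0.55 to -0.29). The Atp6v0d2 ratio moved outside this interval, to -0.23 without its 10 richest cells and to -0.18 with clusters from mRNA alone. Gpnmb stood at 12.4 and 10.1 CPM, a log2 ratio of -0.29 (-0.52 to -0.06), and Cd9 at 18.5 and 16.2 CPM, a log2 ratio of -0.20 (-0.38 to -0.01). Neither held under other settings, since Gpnmb had a ratio of 0.0022 with the genes kept in the clustering and of 0.074 with clusters from mRNA alone, and Cd9 of -0.0067 without its 10 richest cells. Spp1, with 88 and 24 UMIs, had a log2 ratio of -1.22 (-1.94 to -0.55), which turned to 0.10 without its 10 richest cells. Mmp12 fell from 22.2 to 1.22 CPM, a log2 ratio of -4.18 (-4.78 to -3.64), and ranked 1st from the lowest of 10200 genes. Of the 7 members with at least 200 UMIs here, 1 was at least 1.5-fold lower in ABX, against 1.12% of the genes. That much higher were 0, against 3.33%. As over all cells, nothing is read from this count.

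In macrophage-like cells the Mmp12 ratio again rested on few cells. Of the 800 NW UMIs the richest cells held 177 and 158, and 7 macrophage-like cells had at least 10. Without cells of at least 10 Mmp12 UMIs the log2 ratio was -2.29. The share of macrophage-like cells with a Mmp12 UMI, thinned to 1000 UMIs a cell, was 0.741% in NW and 0.107% in ABX, and the share in B and T cell-like cells, which should lack the gene, was 0.547% and 0.0106%. Unthinned, these shares were 2.88% and 0.336% in macrophage-like cells (median depths 5684 and 4076 UMIs) and 2.02% and 0.0775% in B and T cell-like cells (T cell-like 3513 and 3171, B cell-like 4375.5 and 3966). Most of the Mmp12 share of NW macrophage-like cells was thus matched in lymphocytes of the same library.

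Gpnmb and Spp1 could not be read as expressed by macrophage-like cells at large in NW, since their thinned shares there (0.872% and 0.123%) were below those in B and T cell-like cells (1.06% and 0.132%). In ABX they were 0.584% and 0.0741%, against 0.369% and 0.0356%. The Cd9 shares of 1.56% and 1.32% were below those of B and T cell-like cells in both libraries (2.36% and 3.0%). Cd9 was uneven among these lymphocytes. It stood at 60.8 CPM in NW and 56.7 in ABX in the larger B cell-like cluster, and at 5.17 and 12.2 CPM in a T cell-like cluster. For Cd9 the comparison therefore cannot tell expression in macrophage-like cells from background. For Trem2 the thinned shares were 13% in NW and 12.7% in ABX, against 2.10% and 1.26% in B and T cell-like cells. Cd63 reached 49.3% and 48.3%, against 6.29% and 5.23%. Mmp19 (2.42% and 1.88%, against 0.638% and 0.240%) and Atp6v0d2 (3.62% and 2.79%, against 1.37% and 0.673%) were also above the B and T cell-like cells. Atp6v0d2 too was uneven among lymphocytes. An NK cell-like cluster stood at 55.0 CPM in NW and 46.0 in ABX, above macrophage-like cells in both libraries. A T cell-like cluster stood at 72.1 and 23.0 CPM, and the larger B cell-like cluster at 10.5 and 1.59 CPM. For Atp6v0d2 the comparison therefore does not hold for all lymphocytes. The thinned comparison left out 90 NW and 149 ABX macrophage-like cells shallower than 1000 UMIs.

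In the Fn1 Ear2 Lyz1 cluster, all members with at least 200 UMIs were lower in ABX. Mmp12 stood at 850 CPM in NW and 29.2 in ABX, a log2 ratio of -4.86 (-5.25 to -4.50), and Mmp19 at 175 and 34.4 CPM, a log2 ratio of -2.35 (-2.72 to -2.0). Gpnmb stood at 744 and 237 CPM, a log2 ratio of -1.65 (-1.79 to -1.51). The pump subunit and the receptor followed, Atp6v0d2 at 291 and 140 CPM with a log2 ratio of -1.05 (-1.25 to -0.87) and Trem2 at 238 and 121 CPM with a log2 ratio of -0.97 (-1.18 to -0.77). The tetraspanins were lower by least, Cd63 at 524 and 293 CPM with a log2 ratio of -0.84 (-0.97 to -0.71) and Cd9 at 198 and 125 CPM with a log2 ratio of -0.67 (-0.88 to -0.46). Spp1 had 91 UMIs in NW and 2 in ABX, a log2 ratio of -4.68 (-7.75 to -2.79). At least 1.5-fold lower were 7 of the 7 members with at least 200 UMIs, with a median log2 ratio of -1.05. Among 4732 genes 4.52% were that much lower, with a median of 0.00. That much higher were 0 members, against 2.11% of the genes. The genes were chosen on this same contrast and the cluster by its Gpnmb UMIs, most of them from NW, so nothing is read from this count.

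Most of this difference lay in few cells. Without the cells of at least 10 Mmp12 UMIs (29 NW cells and 1 ABX cell of the cluster), Gpnmb stood at 169 CPM in NW and 176 in ABX, a log2 ratio of 0.06 (-0.14 to 0.25), and Atp6v0d2 at 110 and 128 CPM, a log2 ratio of 0.22 (-0.01 to 0.46). Cd9 had a log2 ratio of -0.04 (-0.28 to 0.20), Trem2 of -0.28 (-0.51 to -0.05), Cd63 of -0.41 (-0.56 to -0.26) and Mmp19 of -0.58 (-1.01 to -0.16). Mmp12 itself kept a ratio of -1.97 (-3.10 to -1.0), on 62 NW and 10 ABX UMIs. The other 7 genes summed went from -1.21 to -0.20. This removal was chosen after the data were seen, and it takes the cells that hold most of a gene, so it lowers the NW level of any gene those cells share.

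Other values moved with the libraries in this cluster. Its median depth was 2228 UMIs in NW and 1641 in ABX. The summed level of 6 mast cell markers was 282 CPM in NW and 32.0 in ABX (0 and 3 of the 6 at 0), that of 6 fibroblast markers 27.0 and 217 CPM (0 of 6 at 0 in both), and that of 6 proliferation genes 262 and 501 CPM (0 of 6 at 0 in both). The 8 genes of large peritoneal macrophages summed to 836 and 1233 CPM (0 at 0 in both) and the 12 genes of dissociation stress to 13345 and 10371 CPM (0 at 0 in both). Neutrophil markers summed to 107 and 218 CPM, B cell markers to 120 and 203 CPM and mature DC markers to 135 and 74.1 CPM. The 7 genes listed for alveolar macrophages, Ear2 and Chil3 among them, summed to 438 and 395 CPM (1 of 7 at 0 in both), against 35.5 and 12.5 CPM in macrophage-like cells. The part of these lists in the result was not tested. At a clustering resolution of 1.2 part of the cluster formed a finer one of 252 NW and 136 ABX cells, again taken as the one with most Gpnmb UMIs. It was led by Mmp12, Gpnmb, Chil3, Ear2, Fn1 and Lyz1. The members had been kept out of the clustering, but the choice by Gpnmb favours a cluster led by Gpnmb and by genes found with it. In this finer cluster the mast cell markers were at 19.7 and 9.82 CPM (1 and 5 of 6 at 0). Mmp12 stood at 1767 and 91.7 CPM, a log2 ratio of -4.27 (-4.68 to -3.89), Gpnmb at 1256 and 707 CPM, a log2 ratio of -0.83 (-0.98 to -0.68), and Trem2 at 408 and 264 CPM, a log2 ratio of -0.63 (-0.89 to -0.38).

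Cells with at least 10 Mmp12 UMIs numbered 39 in NW, 0.313% of the cells (0.222% to 0.427%), and 1 in ABX, 0.00786% (0.000199% to 0.0438%). The NW cells held 89.2% of the library's Mmp12 UMIs. By class, 29 of the 39 were in the Fn1 Ear2 Lyz1 cluster, 7 were macrophage-like, 2 ILC2-like and 1 in an unnamed cluster. The lowest cell inside the limit had 11 UMIs in NW and 51 in ABX, and the highest below it had 9 and 7. With at least 5 UMIs there were 53 NW and 3 ABX cells, with at least 20 there were 30 and 1, and with at least 100 there were 11 and 0, where 0 of 12724 cells allows a share of up to 0.0290% (exact interval). The barcodes of 2 of the 39 were also cells in ABX, and those ABX cells held 0 Mmp12 UMIs.

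The 39 cells were large libraries in which nearly the whole gene group was found. Their median was 13834 UMIs (1908 to 54426) and 3593 genes, against 2144 UMIs and 1040 genes in the other 768 NW cells of the Fn1 Ear2 Lyz1 cluster, and their median mitochondrial share was 6.07% against 14.3%. Of the 8 genes a median of 7 (3 to 8) had a UMI, and 36 of the 39 cells had at least 5. Cd9 was found in 38 of the 39 cells, Cd63 in 37, Trem2 in 36, Mmp19 in 35, Atp6v0d2 in 34 and Gpnmb in 32, but Spp1 in 7. The medians per cell were 68 UMIs of Mmp12, 25 of Gpnmb, 16 of Cd63, 11 of Atp6v0d2, 7 of Mmp19, 6 of Trem2, 6 of Cd9 and 0 of Spp1. The highest doublet score among them was 0.241, and leaving out predicted doublets kept 38. The ABX cell had 20129 UMIs and 7 of the 8 genes, with 131 UMIs of Gpnmb, 60 of Cd63, 28 of Atp6v0d2, 24 of Cd9, 15 of Trem2, 5 of Mmp19 and 0 of Spp1.

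**Figure D4:**
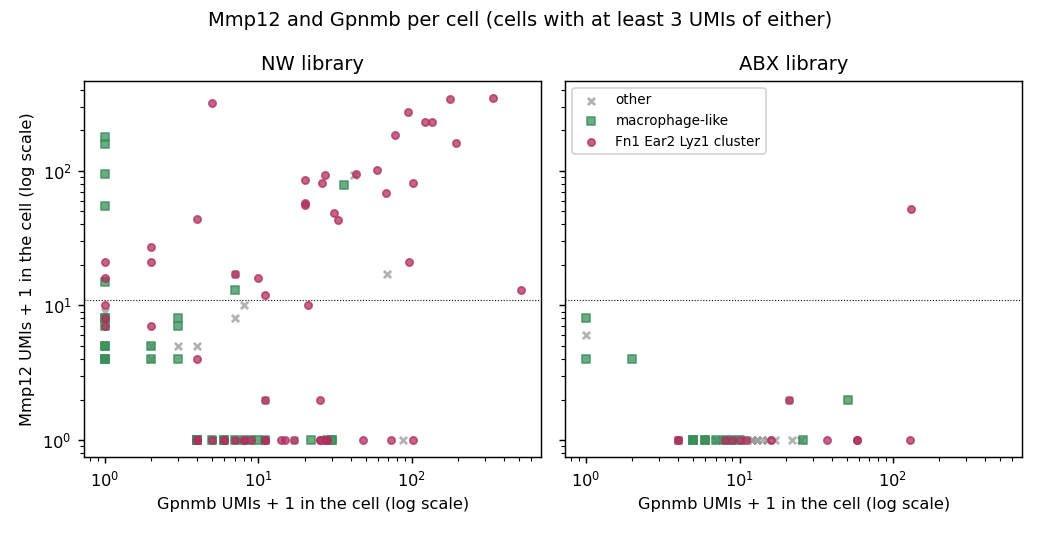
Mmp12 UMIs plus 1 (vertical) against Gpnmb UMIs plus 1 (horizontal) per cell, both on log scales, for the 132 NW cells (left) and 91 ABX cells (right) with at least 3 UMIs of either gene, marked by class. The dotted line is the limit of 10 Mmp12 UMIs. The 39 NW cells lie above it and 1 ABX cell does, while cells rich in Gpnmb with 0 Mmp12 UMIs lie along the bottom in both libraries.

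Other genes led in the same cells. They were set against 7553 other NW cells of the same classes, among genes with at least 50 UMIs in the 39 cells. The 15 genes with the highest CPM ratio included Mmp12, Uchl1, Gpnmb, Ctsk, F7, Mgll, Chil3, Fabp5, Mmp19, Itgax, Sdc1, Atp6v0d2, Ear2 and F10. Mmp12 is among them because the cells were chosen by its UMIs. Ctsk (cathepsin K, a collagen-degrading protease) stood at 523 CPM against 5.57 and was found in 28 of the 39 cells. Fabp5 (a fatty acid binding protein) stood at 1491 against 42.7 CPM in 35 cells, and Itgax (CD11c) at 967 against 30.7 CPM, also in 35 cells. Mgll (monoacylglycerol lipase) stood at 186 against 4.69 CPM in 12 cells, with 34 of its 111 UMIs left without the richest. F7 and F10, coagulation factors, were found in 18 and 22 cells, with 46 and 58 UMIs left without the richest. Chil3 rested on 3 cells, and 49 of its 373 UMIs remained without the richest. Uchl1 was found in 9 cells and Ear2 in 15. Of the 39 cells 29 were of the Fn1 Ear2 Lyz1 cluster, while the cells they were set against were mostly macrophage-like. Within the cluster the ratios were smaller for several genes. Fabp5 was 8.57-fold higher in place of 35.0-fold, Ctsk 17.7-fold in place of 93.9-fold and F7 9.57-fold in place of 74.6-fold, and Itgax, Ear2, Sdc1 and F10 were not among the first 25 genes there. The depths given above are of the 39 cells and of the other 768 NW cells of the cluster. That of the 7553 cells is not given, and NW macrophage-like cells as a class had a median of 5684 UMIs. The part of depth in these ratios was not tested.

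Cells rich in Gpnmb did not go with Mmp12 in the same way in both libraries. At least 10 Gpnmb UMIs were found in 50 NW and 25 ABX cells. Of the NW cells 28 (56.0%, 41.3% to 70.0%) had a Mmp12 UMI and 24 had at least 10, and of the ABX cells 4 (16%, 4.54% to 36.1%) had a Mmp12 UMI and 1 had at least 10. In the Fn1 Ear2 Lyz1 cluster these were 24 of 37 NW cells (64.9%, 47.5% to 79.8%) and 2 of 8 ABX cells (25%, 3.19% to 65.1%). The intervals within the cluster overlapped. These 8 ABX cells had a median of 15385.5 UMIs, 46.5 Gpnmb UMIs, 25 Atp6v0d2 UMIs, 15 Trem2 UMIs and 21.5 Cd63 UMIs, against 12228 UMIs and 27, 12, 9 and 17 in the 37 NW cells. Their Mmp12 median was 0 in ABX and 20 in NW, and their Mmp19 median 2 and 5. A further 14 of the 25 ABX cells were fibroblast-like, with 0 UMIs of Mmp12, Trem2 and Atp6v0d2, and this class had 85 ABX and 5 NW cells. These sets of cells were chosen after the data were seen.

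How many of the genes a cell held also differed. At least 5 of the 8 had a UMI in 115 NW cells (0.922%, 0.762% to 1.11%) and 27 ABX cells (0.212%, 0.140% to 0.309%), a log2 ratio of shares of -2.12 (-2.78 to -1.50). The Fn1 Ear2 Lyz1 cluster gave 53 of 797 NW cells (6.65%) and 13 of 641 ABX cells (2.03%), a log2 ratio of -1.71 (-2.71 to -0.82). Macrophage-like cells gave 38 (0.655%) and 7 (0.138%), a log2 ratio of -2.24 (-3.65 to -1.06). These were deep cells, with a median of 12128 UMIs in NW and 14963 in ABX in the Fn1 Ear2 Lyz1 cluster. When each cell was thinned to 1000 UMIs, 22 NW and 2 ABX cells of that cluster had at least 5, and 1 and 0 macrophage-like cells. All 8 genes had a UMI in 7 NW cells, 6 of them in the Fn1 Ear2 Lyz1 cluster and 1 in a B or T cell-like cluster, and in 0 ABX cells. In B and T cell-like cells 7 NW cells and 1 ABX cell had at least 5 of the genes, 1 NW and 0 ABX after thinning.

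**Figure D5:**
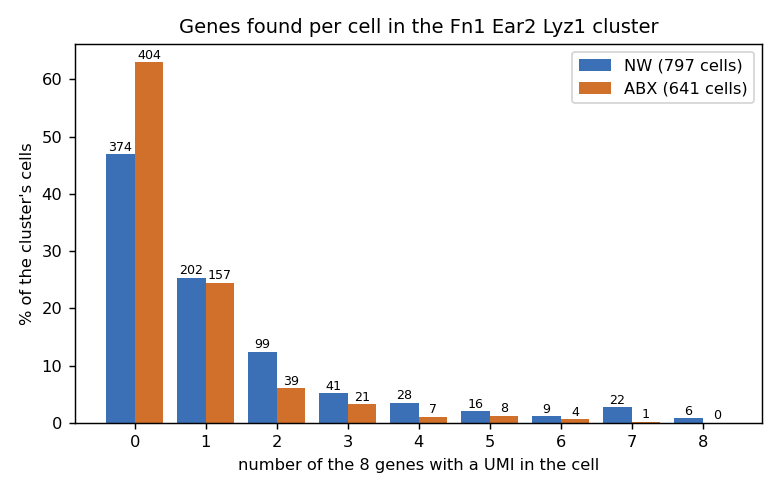
Percent of the cells of the Fn1 Ear2 Lyz1 cluster (bars from 0, NW and ABX side by side) by the number of the 8 genes with a UMI in the cell, with the number of cells above each bar. In NW 374 of 797 cells and in ABX 404 of 641 had 0 of the genes, and 22 NW cells and 1 ABX cell had 7.

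Taken pair by pair, the genes went together in the Fn1 Ear2 Lyz1 cluster and hardly at all in macrophage-like cells. Over the 28 pairs, Pearson's r of log counts per cell had a median of 0.39 (0.12 to 0.72) in the 797 NW cells and of 0.14 (-0.01 to 0.63) in the 641 ABX cells of the cluster. The highest pair was Atp6v0d2 with Gpnmb in both libraries. In macrophage-like cells the median was 0.04 in NW and 0.03 in ABX, and the highest pair, Cd63 with Trem2, had 0.16 and 0.14. The cells of a set share a library, and counts this sparse rise with depth, so these values are descriptions.

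The pair of Gpnmb and Atp6v0d2 can be read without r. Of the 83 NW cells of the cluster with a Gpnmb UMI 65.1% (53.8% to 75.2%) had an Atp6v0d2 UMI, against 5.32% of those without. Thinned to 1000 UMIs this was 52.9% against 2.85%. In ABX it was 52.2% (30.6% to 73.2%) of 23 cells against 1.94%, and 30.8% against 1.28% when thinned. For Gpnmb and Mmp12 the NW share was 41.0% (30.3% to 52.3%) of the Gpnmb cells against 3.08%, and the ABX share 13% (2.78% to 33.6%) against 1.13%.

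The AbSeq antibodies, counted in the same cells, give a readout outside mRNA, and CD44, a receptor of osteopontin, is among them. In the Fn1 Ear2 Lyz1 cluster the median CD44 antibody count was 191.5 in NW cells with 0 or 1 of the genes, 262 with 2 to 4 and 510 with at least 5, and 154, 207 and 592 in ABX. Macrophage-like cells were lower, with medians of 56, 60 and 144 in NW and 51, 55 and 183 in ABX. The order for CD44 was the same in both libraries and both sets of cells. Other antibodies rose with it in the NW cells of the Fn1 Ear2 Lyz1 cluster. TCR-beta had medians of 12, 16 and 29, CD1d of 5, 8 and 15 and NK-1.1 of 20, 28 and 34. CD4 (1, 2 and 2) and CD69 (6, 6 and 9) did not rise at each step. A rise with the number of genes found was thus not particular to CD44. The median gene UMIs rose in the same order, from 1753.5 to 6842 and 12128 in the NW cells of the Fn1 Ear2 Lyz1 cluster, and the part of depth in the antibody counts was not tested.

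UMIs of the members were also found in lymphocytes, and whether they came from free RNA, from doublets or from the cells themselves was not tested. In B and T cell-like cells the Mmp12 level was 6.94 CPM in NW (64 UMIs) and 0.185 CPM in ABX (2 UMIs), so it was lower in ABX there too, with a log2 ratio of -5.23 (-8.31 to -3.32). Gpnmb stood in these lymphocytes at 21.7 and 5.09 CPM, Trem2 at 33.3 and 20.9 CPM and Cd63 at 122 and 94.7 CPM. The Mmp12 level of the lymphocytes was far under that of the Fn1 Ear2 Lyz1 cluster in both libraries. A CD8 T cell-like NW cell with 15616 UMIs held 64 Mmp19 UMIs and 7 of the 8 genes, with a doublet score of 0.0438, under the threshold of 0.227. This cell also held 87 of the 200 Gpnmb UMIs of NW B and T cell-like cells.

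Genes of the same pathways were described from lists chosen with earlier results known. The partners of TREM2 were near level. Of 7 signalling genes 0 were at least 1.5-fold lower or higher over all cells (median log2 ratio 0.07, all genes 0.05), and 0 of 7 in macrophage-like cells and 0 of 6 in the Fn1 Ear2 Lyz1 cluster were either. Tyrobp, the adaptor that carries the TREM2 signal, stood at 874 CPM in NW and 706 in ABX over all cells and at 1194 and 1163 CPM in macrophage-like cells, and the kinase Syk at 408 and 395 CPM in the latter. Of 8 osteopontin receptors 0 were past the limit over all cells, Cd44 standing at 242 and 198 CPM and Itgb1 at 493 and 455 CPM. In the Fn1 Ear2 Lyz1 cluster 1 of 6 was lower, Itgb5, at 53.5 and 24.4 CPM, beside 4.52% lower among all genes. In macrophage-like cells 0 of 8 were past the limit.

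Over all cells the other subunits of the V-ATPase had ratios nearer to 0 than that of Atp6v0d2. Of 16 subunits 1 was at least 1.5-fold lower, Atp6v0c at 9.05 and 5.84 CPM, and 0 were higher, with a median log2 ratio of -0.25, beside 1.93% lower among all genes. In the Fn1 Ear2 Lyz1 cluster 5 of 15 were lower and 0 higher, with a median of -0.52, beside 4.52% lower among all genes. Atp6v1b2 stood there at 354 and 215 CPM and Atp6v0a1 at 137 and 79.8 CPM, while Tcirg1 stood at 336 and 294 CPM. Among 8 genes of lysosome and lipid regulators 1 was lower over all cells, Tfec, at 9.45 and 6.12 CPM, beside 1.93% lower among all genes. Cebpb stood at 513 and 463 CPM, and Mitf at 32.1 and 24.5 CPM.

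The other metalloproteinases and their inhibitors were mixed over all cells. Of 8 genes 0 were lower and 3 higher, Mmp2 at 2.63 and 21.6 CPM, Mmp14 at 4.55 and 14.0 CPM and Timp3 at 25 and 79.8 CPM, beside 8.22% higher among all genes. All 3 are known from stromal cells, and the summed level of 6 fibroblast markers over all cells was 72.2 CPM in NW and 508 in ABX (0 of 6 at 0 in both). The part of those cells in the result was not tested. Mmp9 and Timp2, the genes of the list with most UMIs, were at lower levels in ABX without passing the limit, at 119 and 93.1 CPM and at 765 and 581 CPM. In macrophage-like cells 2 of 4 were higher, Mmp14 at 4.45 and 7.0 CPM and Timp3 at 6.14 and 16.6 CPM (3.33% of all genes), and in the Fn1 Ear2 Lyz1 cluster 1 of 2, Mmp9, at 56.7 and 110.4 CPM (2.11% of all genes). Of 11 other tetraspanins 0 were past the limit over all cells, with a median of -0.04. Cd81 stood at 356 and 335 CPM and Cd53 at 578 and 588 CPM.

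Of the wider lipid-handling list, 24 genes had at least 200 UMIs over all cells. Of these 2 were at least 1.5-fold lower and 2 higher, beside 1.93% lower and 8.22% higher among all genes. The median log2 ratio of the list was -0.38, against 0.05 among all genes. Fabp5 stood at 98.6 and 55.0 CPM, while Fabp4, also a gene of endothelial cells and adipocytes, stood at 202 and 556 CPM and Ctsk at 8.40 and 13.7 CPM. The summed level of 7 endothelial markers was 70.7 CPM in NW and 173 in ABX (0 of 7 at 0 in both). In macrophage-like cells 2 of 23 were lower, Capg with a log2 ratio of -0.72 and Itgax at 20.3 and 13.3 CPM, and 1 higher, Fabp4. Among all genes in these cells 1.12% were lower and 3.33% higher. In the Fn1 Ear2 Lyz1 cluster 15 of 23 were lower and 0 higher, with a median of -0.68 beside 4.52% lower among all genes. Lpl (lipoprotein lipase) stood at 1298 and 492 CPM, Lgals3 (galectin 3) at 2522 and 1185 CPM and Ctsb (cathepsin B) at 3616 and 2061 CPM, while Apoe stood at 4293 and 4007 CPM.

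Part of the list was high in the same cells as Mmp12. In NW, the 29 cells of the cluster with at least 10 Mmp12 UMIs had Lgals3 at 10503 CPM against 1463 in its other 768 cells, Lpl at 3080 against 1062 CPM and Ctsb at 9083 against 2891 CPM. Capg stood at 1143 against 305 CPM. Apoe was lower in them, at 2716 against 4502 CPM. Tyrobp stood at 1443 against 1131 CPM and Cd44 at 433 against 370 CPM, closer to level than the lipid-handling genes.

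Across the 27 clusters, both libraries summed, the 5 genes most like each member by Pearson's r of log2 (CPM + 1) also differed between members. For Trem2 they were Pf4 (0.95), Apoe, Pltp, Mertk and Csf1r, and for Cd63 Lamp1 (0.93), Idh1, Bri3, Cstb and Ftl1. For Spp1 they included Sgo1 (0.75), E2f8, Ccnf and Plk1, of which several are known from cell division. Mmp19 was nearest to Nr1h3 (0.85), Cbr3, Scamp1, Tnfsf13b and Thbs1, and Gpnmb to Il11ra1 (0.80), C77080, Ctsk, Prg4 and Vcan. Atp6v0d2 was nearest to Jpx (0.82), Plxnb3, Ms4a8a, Gm5086 and Map7d3, and Mmp12 to Map1s (0.68), Lmna, Serpinb2, F7 and Tpsb2. Those of Cd9 included Actn1 (0.74), Met, Myadm and Asap1. Among the members themselves the most alike were Trem2 and Cd63 (0.74) and the member least like Mmp12 was Cd9 (-0.10). The clusters share 2 libraries and differ in depth and in cell number.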

How the data were processed

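The deposited values are UMI counts per gene and cell barcode, made by the authors with the BD Rhapsody WTA pipeline 1.8 on GRCm38 without normalization. The submitters' processing notes name R 3.6.0 and Seurat 3.0.1. The deposited counts include 10 antibody columns, while the methods list 8 antibodies, which were the ones used for clustering. A gene listed in 1 library only was taken as 0 in the other.

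Seurat 5.3.0 in R 4.3.3 gave log-normalized values, 2000 variable genes with the UMI count regressed out, 30 principal components and Louvain clusters at resolution 0.6 on weighted nearest neighbours. The 8 genes and 25 related genes were left out of the variable genes. A cluster was named where at least 3 markers of a class were 1.5-fold or more above all other cells (0.1 added per 10000 UMIs) and were found in 10% or more of its cells. Summed UMIs were set over the gene UMIs of the same cells, with exact Poisson intervals, exact conditional intervals of a ratio and Clopper-Pearson intervals of a share (Python 3.11.15, numpy 2.4.6, scipy 1.17.1). Thinned shares are expected values at 1000 UMIs a cell, except that the number of the 8 genes per cell and the pairs of genes come from a seeded draw.

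The members, the lists and the limit of 10 Mmp12 UMIs were chosen with earlier results of these data known. Named were the members, from each list the 3 genes with most UMIs and the 3 with the largest ratio, the 15 leading genes of Mmp12-rich cells and the 5 genes most like each member. A few genes that this rule names are not reported here. Scrublet in scanpy 1.11.5 called 344 NW cells, and 1 ABX cell with its automatic threshold, so the NW threshold was used in both (324 ABX cells). Doublets were kept otherwise. Tested on library sums simulated as Poisson counts with 200 changed genes, the ratio interval covered the true value in 95.6% of 12311 genes. The interval assumes Poisson counts too, and the simulation left out that some genes have most UMIs in few cells. It therefore checks the calculation only and not the width of the intervals for such genes. Medians of 5092 and 3845.5 UMIs per cell limit the precision of sparse genes.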

Additional observations from a re-analysis of the deposited data

Results flagged for a closer look

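Barcodes that the filters removed were outside the comparisons above, and they also held Mmp12. The 5188 removed NW barcodes had 128 Mmp12 UMIs (27.6 CPM), in 58 of them (1.12%, 0.850% to 1.44%) and with up to 21 in a barcode. The 5061 removed ABX barcodes had 13 UMIs (3.23 CPM), in 5 of them (0.0988%, 0.0321% to 0.230%) and with up to 9 in a barcode. Over 25% mitochondrial UMIs were found in 5174 of the NW and 5017 of the ABX barcodes removed.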

How the results depend on the processing

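No paired analysis was possible because each condition has 1 library. Over all cells, 79 of 81 alternative values of the members kept their direction. Those that turned were of Gpnmb, 0.076 without cells of at least 10 Mmp12 UMIs and 0.026 without the Fn1 Ear2 Lyz1 cluster. Within sets, Spp1 in macrophage-like cells turned to 0.10 without its 10 richest cells and to 0.029 with the genes kept in the clustering. Gpnmb there went from -0.29 to 0.0022 with the genes kept and to 0.074 on mRNA alone, and Trem2 and Cd63 there lay on both sides of 0, between -0.027 and 0.055 and between -0.022 and 0.035. Atp6v0d2 in macrophage-like cells kept its direction but went from -0.42 to -0.23 without its 10 richest cells and to -0.18 on mRNA alone. Gpnmb in the Fn1 Ear2 Lyz1 cluster turned to 0.056 and Atp6v0d2 to 0.22 without cells of at least 10 Mmp12 UMIs.

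Leaving out those cells moved the Mmp12 log2 ratio from -4.99 to -2.71 over all cells, from -4.18 to -2.29 in macrophage-like cells and from -4.86 to -1.97 in the Fn1 Ear2 Lyz1 cluster, and the other 7 genes summed from -0.40 to -0.28 over all cells and from -1.21 to -0.20 in that cluster. Without the 10 richest cells these values were -3.78, -2.14 and -3.09 for Mmp12, and -0.34 and -0.92 for the sum. Without the Fn1 Ear2 Lyz1 cluster they were -4.27 and -0.29. Thinning gave -3.18 in macrophage-like cells and -5.33 in the cluster for Mmp12, and -0.33 over all cells for the sum. At most 10% mitochondrial UMIs gave -4.82 for Mmp12 in macrophage-like cells, and -0.38 over all cells, 0.0084 in macrophage-like cells (from -0.04) and -1.1 in the cluster for the sum. Median-of-ratios scaling gave -0.45 for the sum over all cells. Clustering on mRNA alone gave -3.63 and 0.0011 in macrophage-like cells, and keeping the genes in gave -3.60 for Mmp12 there. Resolution 1.2 gave -4.27 and -0.73 in the finer cluster.

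ABX cells with at least 5 Mmp12 UMIs numbered 3. The share with at least 4 genes had a log2 ratio of -1.40 over all cells, and thinning gave -3.71 over all cells and -3.10 in the cluster. In macrophage-like cells thinning left 0 ABX cells with at least 5, so no ratio could be given. With a minimum of 50 UMIs 13.3% of genes were at least 1.5-fold higher in ABX. The cause of these shifts was not tested, beyond the cells each setting removes by construction. Scrublet's automatic ABX threshold was replaced, as described. Settings and sets named after the data were seen are the Fn1 Ear2 Lyz1 cluster, its removal, the removal of Mmp12-rich cells and of shared barcodes, and the shared Scrublet threshold. Of the values for a gene or a set of cells beyond these, 163 stayed within their counting interval and 88 moved.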
